A study of Mus musculus with 15 samples.

Results

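Open PU.1 peaks private to eosinophils were defined as the PU.1 ChIP-seq peaks of BALB/c eosinophils that shared at least 1 bp with a peak of at least 1 of 2 BALB/c ATAC-seq lists and with no PU.1 peak of 3 other myeloid peak lists, named Neut, mBMDM and ImmGran. The BALB/c PU.1 list held 62236 peaks. Of these, 28802 were open by the ATAC rule, and 2921 were private (10.1%, 95% Wilson interval 9.80 to 10.5). The other 25881 open PU.1 peaks served as the comparison. Members were chosen by the PU.1 and ATAC calls, so those calls are described here and not tested. Histone marks, C57 ATAC and the H3K27ac of the other cell types did not enter the choice.

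The cells were unselected bone marrow progenitors of BALB/c mice, or of mice called C57 in the titles and BL6/57 in the strain field, cultured for 14 days. All cultures received stem cell factor and FLT3 ligand at 100 ng/mL each on days 0 to 3, then interleukin 5 at 10 ng/mL on days 4 to 14. PU.1 was mapped in 1 BALB/c library. BALB/c cells gave 2 libraries for each of RNA, ATAC, H3K4me1, H3K4me3 and H3K27ac, and C57 cells gave 2 for ATAC and 2 for H3K27ac. The labels name no separate animals or cultures, so the spread between libraries may be technical. The series re-used data of other studies for the Neut, mBMDM and ImmGran lists, each from 1 library, and the sources used here give neither their strain nor their treatment. For those lists a difference of strain and one of cell type cannot be told apart.

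PU.1, encoded by Spi1, is an ETS family transcription factor that is needed for the myeloid lineages. It binds both promoters and distal enhancers, and its distal sites are known to differ between cell types according to the partner factors present. H3K4me3 marks active promoters, H3K4me1 marks enhancers, and H3K27ac marks promoters and enhancers that are active. ATAC-seq reads out accessible DNA by the cuts of a transposase.

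The RNA libraries, with 40306679 and 30465490 counts on genes, carried the defining eosinophil genes. The granule protein genes Prg2 and Epx stood at 3910 and 4195 and at 2883 and 2649 CPM (counts per 1000000 counts on genes), and Spi1 stood at 411 and 436 CPM. All 7 eosinophil markers reached 1 CPM in both libraries, with a summed level of 11428 and 11654 CPM. The cultures were not free of genes of other cells: all 7 neutrophil markers (summed 915 and 842 CPM), 5 of 6 macrophage markers (3509 and 3898 CPM, Marco at 0) and 3 of 4 stromal markers (2250 and 589 CPM) reached 1 CPM, as did 2 of 5 mast cell and basophil markers (55.0 and 34.2 CPM, Mcpt4 at 0) and 2 of 4 B and T cell markers (7.59 and 8.04 CPM). Some of these genes, such as Adgre1, are also transcribed in eosinophils, and the part of other cells in the peak lists was not tested.

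Private peaks were weak PU.1 peaks. The authors' −log10 q gives the significance of a peak over background, and fold enrichment gives the size of its excess. Peak strength here means the −log10 q. The −log10 q had a median of 5.92 in private peaks (lowest 2.03, quartiles 4.24 and 8.93, highest 50.3) against 14.6 in other open PU.1 peaks. The authors' score had medians of 59 and 146, fold enrichment medians of 4.27 and 6.08, and width medians of 325 and 668 bp. Low strength was not particular to private peaks. Open PU.1 peaks shared with the mBMDM list only had a median −log10 q of 6.65 and a median width of 421 bp. Those shared with Neut or ImmGran but not mBMDM had medians of 8.67 and 452 bp. Those shared with every other list had medians of 23.4 and 796 bp. When all open PU.1 peaks were cut into 10 groups by −log10 q, the private share fell from 33.1% (31.4 to 34.9) in the weakest group to 0.590% (0.369 to 0.943) in the strongest, which held 17 private peaks. The PU.1 calls chose the members, so this gradient is a description. PU.1 peaks outside ATAC peaks were private at a rate of 11.2% (10.9 to 11.6, 3755 of 33434).

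**Figure D1:**
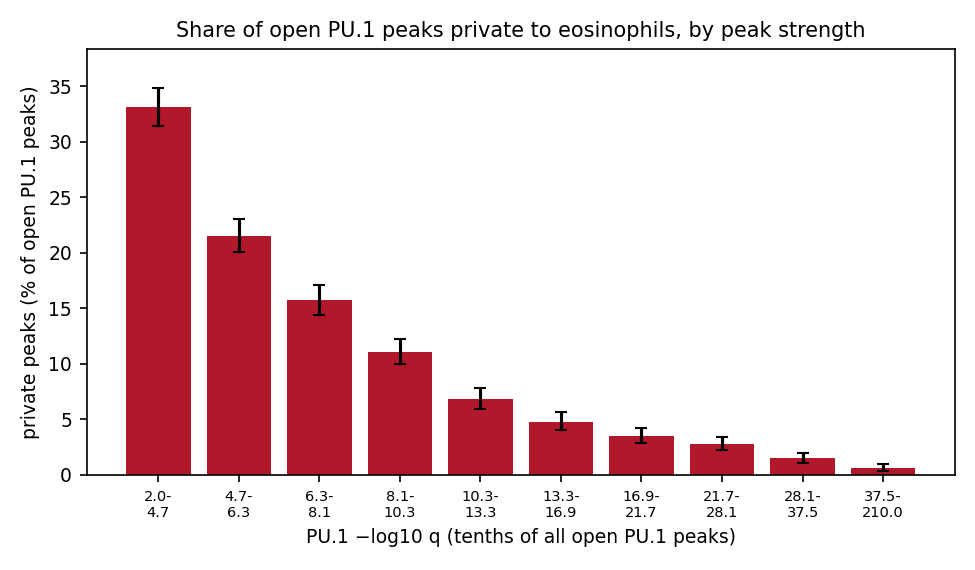
Share of open PU.1 peaks private to eosinophils (y axis, %) in 10 groups of PU.1 −log10 q (x axis), with 95% Wilson intervals. The share falls from 33.1% in the weakest group to 0.590% in the strongest.

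The number of private peaks depended on the other lists. The Neut, mBMDM and ImmGran PU.1 lists held 100426, 135034 and 35266 peaks and covered 72.9%, 85.0% and 52.4% of the open PU.1 peaks. Cut to 35266 peaks each, they left 9866 private peaks. Without the mBMDM list, which has the layout of broad peaks and reaches a −log10 q of 1 rather than 2, 6534 were left, and requiring a PU.1 −log10 q of at least 5 left 1825. Private therefore means not called in these 3 lists. The mark comparisons below were not repeated with shortened or omitted PU.1 lists.

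Since private peaks are weaker, each mark was compared with other open PU.1 peaks of like −log10 q. The range of the private peaks was cut into 10 strata at their deciles, the share of marked peaks among the others was weighted to the same strata, and differences are given in percentage points with 95% intervals. Peaks are not replicates, and these intervals cover counting error over peaks only. A mark counted where it was called in each of the 2 libraries.

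At the private peaks, H3K4me3 was called at 46.0% (47.2% and 49.7% in the single libraries, 48.4% ± 1.77, SD, n = 2), against 50.0% of all open PU.1 peaks and 50.9% of others of like −log10 q, a difference of −4.93 points (−6.90 to −2.95). This average shrank to −0.592 points in strata that also held PU.1 peak width alike and to −2.19 points in strata that also held ATAC −log10 q alike. H3K27ac was called at 48.5% (51.7% and 59.0% in single libraries, 55.3% ± 5.13, SD, n = 2), against 55.1% of all open PU.1 peaks and 46.4% of the like peaks, a difference of 2.17 points (0.141 to 4.21). H3K4me1 was called at 17.1% (26.5% and 24.6%, 25.5% ± 1.36, SD, n = 2), against 18.9% of all and 13.3% of the like peaks, a difference of 3.78 points (2.32 to 5.25). The excess did not hold against each set of shared peaks: those shared with Neut or ImmGran but not mBMDM had H3K4me1 at 21.0%, weighted likewise. The H3K27ac difference turned to −4.77 points among peaks with a −log10 q of at least 5 and to −7.24 points without strata, so its sign was not stable. Its sign also differed by shared set, weighted likewise. It was −4.21 points (−6.67 to −1.75) against peaks shared with mBMDM only. It was 12.3 points (9.03 to 15.6) against those shared with Neut or ImmGran but not mBMDM, and 12.4 points (9.21 to 15.6) against those shared with all 3 lists. It was −9.99 points when private peaks within 500 bp of a PU.1 peak of another list were left out. That setting removed private peaks only, since all other open PU.1 peaks overlap such a peak. The 890 removed had H3K27ac at 68.4%.

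The H3K4me3 and H3K27ac averages joined opposite differences along peak strength, which were noticed after the data were seen. In the weakest stratum, H3K4me3 marked 58.9% (53.2 to 64.4) of private peaks and 47.1% of the others. In the strongest, with a −log10 q from 15.2 to 50.3, it marked 16.4% (12.6 to 21.1) of 293 private peaks and 47.6% (46.8 to 48.5) of the 12444 others. H3K4me3 thus fell with strength among private peaks and lay between 47.1% and 56.1% in every stratum of the others. Over the weaker 5 strata (1459 private peaks) the difference was 8.26 points (5.22 to 11.3), and over the stronger 5 strata (1462 private peaks) it was −18.1 points (−20.6 to −15.5).

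H3K27ac differences also changed sign. H3K27ac stayed level among private peaks, from 46.9% in the weakest to 46.8% in the strongest stratum, while it rose from 34.2% to 62.0% among the others. H3K4me1 rose from 6.85% to 35.8% of private peaks, and from 11.5% to 25.3% of the others, and was higher in private peaks in 9 of 10 strata. The H3K4me1 difference was 0.854 points (−1.09 to 2.80) over the weaker 5 strata and 6.70 points (4.51 to 8.90) over the stronger 5. H3K27ac without H3K4me3, a combination typical of active enhancers, rose from 4.79% to 34.8% against 5.76% to 19.9%, and was also higher in private peaks in 9 of 10 strata. The strong private peaks were distal in this respect: their median distance to an H3K4me3 peak was 9.19 kb in the strongest stratum, against 0 for the others, and 49.1% against 28.1% lay over 10 kb away.

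**Figure D2:**
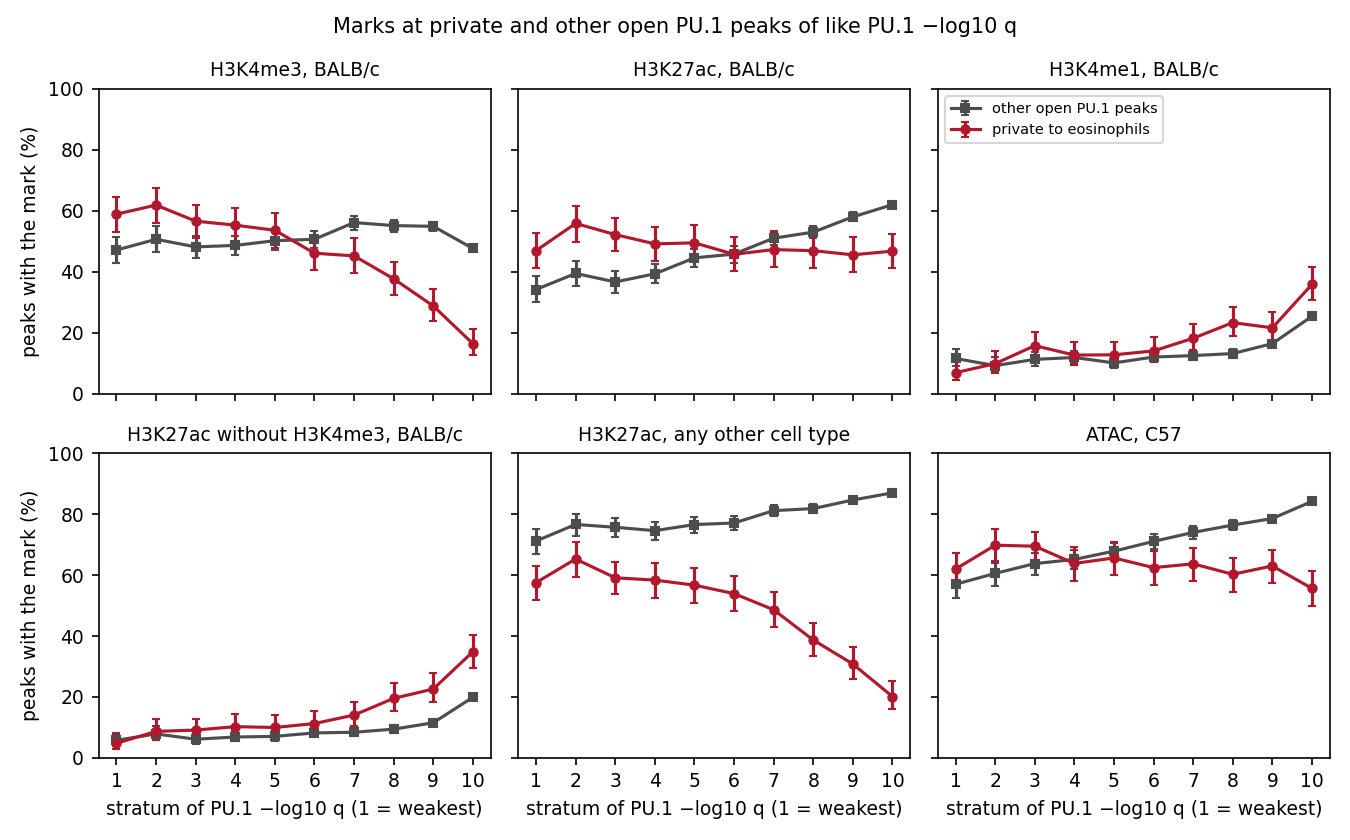
Share of PU.1 peaks with a mark (y axis, %) in 10 strata of PU.1 −log10 q (x axis, 1 is weakest), for private peaks (red circles) and other open PU.1 peaks (grey squares), with 95% Wilson intervals. H3K4me3 falls from 58.9% to 16.4% in private peaks and lies between 47.1% and 56.1% in the others, while H3K27ac of any other cell type falls to 20.1% in private peaks and rises to 87.0% in the others.

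The H3K4me3 difference of weaker private peaks turned negative in settings that changed which peaks were compared. It was −9.27 points when private peaks within 500 bp of another list's PU.1 peak were left out. This removed private peaks only, since all the others overlap such a peak, and the 890 removed carried H3K4me3 at 73.1%. It was −2.54 points at a −log10 q of at least 5, where strata were cut anew, so the weaker strata held stronger peaks. In the original strata 4 and 5 (−log10 q from 4.58 to 5.92) it was 6.65 and 3.42 points. Weaker private peaks also had the stronger ATAC peaks, with a median ATAC −log10 q of 5.42 and 5.08 in the 2 libraries against 4.49 and 4.28 for weaker others. In strata that also held ATAC −log10 q alike, the difference was 3.92 points for weaker and −8.33 points for stronger private peaks. ChIP libraries were made with a transposase, which can add signal at accessible DNA, and its part in these calls was not tested. The deficit of H3K4me3 at stronger private peaks was negative in each alternative run, from −28.7 to −8.33 points. The −28.7 points came from the 500 bp setting, which removed private peaks only. Within the strongest stratum the others still had the higher median −log10 q (26.7 against 21.5), and with 50 strata the stronger difference was −18.4 points.

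By the marks in both BALB/c libraries, the 2921 private peaks fell into 4 chromatin classes. H3K4me3 marked 1343. H3K27ac without H3K4me3 marked 424, or 14.5% against 14.3% of all open PU.1 peaks and 9.09% of the like peaks, a difference of 5.43 points (4.09 to 6.76). H3K4me1 alone marked 248, or 8.49% against 8.07% of all and 6.78% of the like peaks. None of the 3 marks was called at 906, or 31.0% against 27.6% of all and 33.2% of the like peaks. That average also joined opposite differences: −10.4 points (−13.2 to −7.60) over the weaker 5 strata and 5.97 points (3.41 to 8.53) over the stronger 5. By shared set, the difference for peaks with no mark was 7.01 points against peaks shared with mBMDM only. It was −14.8 points against those shared with Neut or ImmGran but not mBMDM, and −11.3 points against those shared with all 3 lists. H3K4me1 peaks at private peaks had a median −log10 q of 1.98 and 1.91 in the 2 libraries, near the lowest value of 1.01 in each list.

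H3K27ac of the other cell types was rarer at private peaks, a comparison in which PU.1 and H3K27ac lists of a cell type are not independent of each other, since PU.1 absence chose the members and both come from that cell type. The Neut list had H3K27ac at 26.6% of private peaks, against 54.2% of all open PU.1 peaks and 48.7% of the like peaks. Peaks shared with mBMDM only, which also lack a Neut PU.1 peak, had Neut H3K27ac at 33.6% when weighted to like −log10 q. Against them the difference was −7.00 points (−9.20 to −4.80). Neut H3K27ac was at 54.3% of peaks shared with Neut or ImmGran but not mBMDM, and at 56.6% of those shared with all 3 lists. The mBMDM list had H3K27ac at 38.8%, against 71.6% of all and 70.0% of the like peaks. Peaks shared with Neut or ImmGran but not mBMDM, which also lack an mBMDM PU.1 peak, had mBMDM H3K27ac at 22.9% when weighted to like −log10 q, so private peaks exceeded them by 15.9 points (12.8 to 18.9). The ImmGran list had H3K27ac at 28.6%, against 54.5% of all and 49.9% of the like peaks. Peaks shared with mBMDM only had ImmGran H3K27ac at 47.1%, weighted likewise, and those shared with all 3 lists at 53.1%. Those shared with Neut or ImmGran but not mBMDM had it at 34.3%, a difference of −5.65 points (−8.93 to −2.37). At least 1 of the 3 lists had H3K27ac at 48.9% of private peaks, against 80.1% of all and 78.6% of the like peaks, a difference of −29.8 points (−31.7 to −27.9). The difference was negative in 10 of 10 strata and in each alternative run, from −45.5 to −21.3 points. None of these runs changed the PU.1 lists that define private peaks, so the dependence of the difference on those lists was not tested. The −45.5 points came from the setting that left out only private peaks, those within 500 bp of another list's PU.1 peak.

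The deficit grew with strength: −15.6 points (−18.5 to −12.7) over the weaker and −43.9 points (−46.4 to −41.4) over the stronger 5 strata. In the strongest stratum, 20.1% (15.9 to 25.1) of private peaks and 87.0% (86.4 to 87.6) of the others were acetylated in another cell type. Acetylation seen in both BALB/c libraries and in none of the other cell types was found at 377 private peaks, or 12.9% against 3.02% of all open PU.1 peaks and 1.25% of the like peaks, a difference of 11.7 points (10.5 to 12.8). That share rose from 7.19% to 32.8% of private peaks across the strata, and from 0.412% to 2.59% of the others.

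Shared acetylation differed by chromatin class. At private peaks with H3K4me3, 81.2% (79.0 to 83.2) were acetylated in another cell type, against 94.2% of like peaks of that class. At private peaks with H3K27ac and no H3K4me3, 36.8% (32.3 to 41.5) were, against 90.3%, a difference of −53.5 points (−58.2 to −48.8). At H3K4me1 alone the shares were 18.5% and 69.9%, and with no mark they were 14.9% and 54.1%. Promoter-type private peaks thus lay mostly in chromatin acetylated elsewhere too, and enhancer-type private peaks mostly did not. In the H3K4me1 class the mBMDM list gave 5.24% against 55.1%, the widest gap of the 3 lists in that class.

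**Figure D3:**
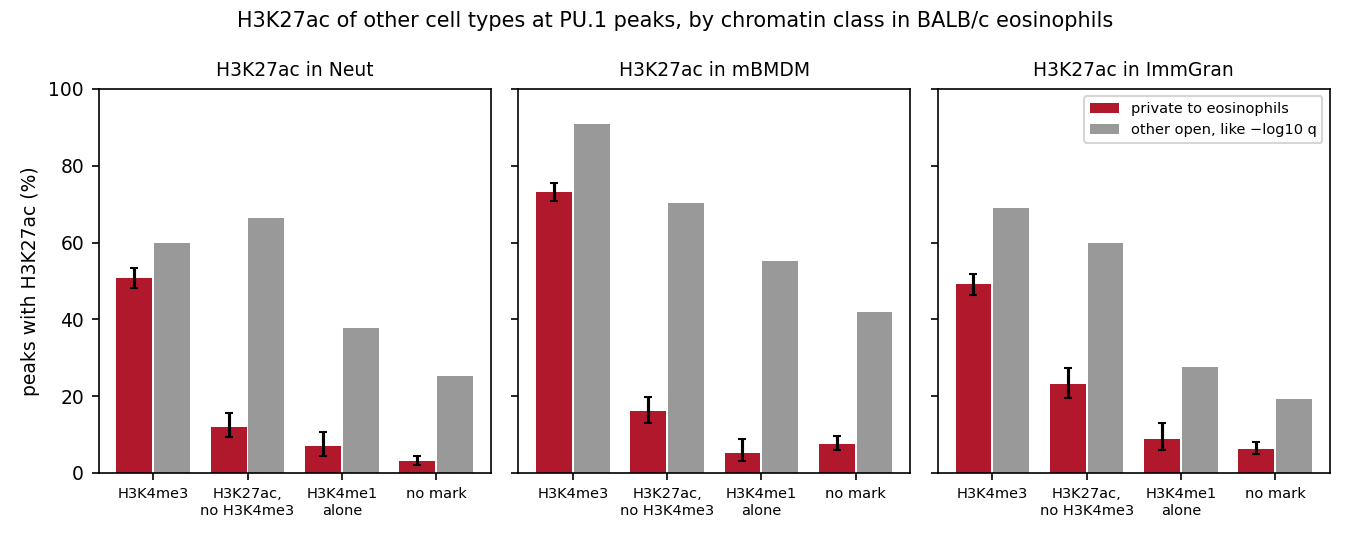
Share of PU.1 peaks with H3K27ac in the Neut, mBMDM and ImmGran lists (y axis, %), by chromatin class in BALB/c eosinophils (x axis), for private peaks (red, with 95% Wilson intervals) and other open PU.1 peaks weighted to like −log10 q (grey). In each panel the smallest gap of shares is at H3K4me3 peaks or at peaks without marks, and private peaks without H3K4me3 stay below 24%.

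Against the open PU.1 peaks shared with given lists, private peaks were intermediate in promoter content. Weighted to the private peaks' strata, H3K4me3 was called at 65.9% of the 3613 peaks shared with the mBMDM list only, at 21.8% of the 1406 shared with Neut or ImmGran but not mBMDM, and at 36.7% of the 13441 shared with all 3 lists, against 46.0% of the private peaks. H3K27ac without H3K4me3 was called at 5.42%, 21.1% and 10.5% of these sets, against 14.5%. H3K4me1 was called at 10.4%, 21.0% and 18.3% of them, against 17.1% of the private peaks. The H3K4me1 differences were 6.75 points (5.09 to 8.42), −3.87 points (−6.51 to −1.22) and −1.20 points (−4.02 to 1.62). Acetylation in eosinophils and in no other list was seen at 2.41%, 4.77% and 0.768% of these sets, against 12.9% of the private peaks, with differences of 10.5 points (9.22 to 11.8), 8.14 points (6.60 to 9.68) and 12.1 points (10.7 to 13.6).

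The marks of private peaks changed with the distance to the nearest PU.1 peak of another list, in 3 distance classes set after the data were seen. The median gap was 1589 bp (quartiles 372 and 5249 bp). The 890 private peaks within 500 bp (30.5%) carried H3K4me3 at 73.1% and had acetylation in another cell type at 81.9%. The 767 private peaks over 5 kb away (26.3%) carried H3K4me3 at 25.3%, H3K4me1 at 23.9% and acetylation in another type at 18.6%. The 1264 between them lay between these values for each of the 3 marks. Peak strength rose with the gap, with a median −log10 q of 5.10, 6.11 and 7.39.

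**Figure D4:**
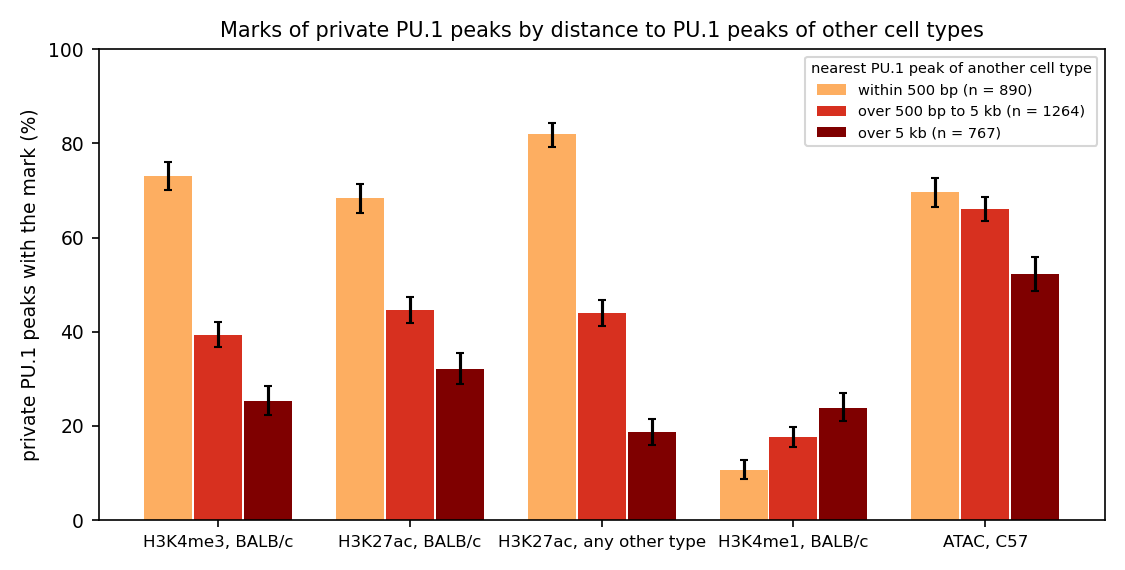
Share of private PU.1 peaks with a mark (y axis, %) by the distance to the nearest PU.1 peak of another list (within 500 bp, to 5 kb, over 5 kb), with 95% Wilson intervals. H3K4me3 falls from 73.1% to 25.3% and acetylation in another cell type from 81.9% to 18.6%, while H3K4me1 rises from 10.6% to 23.9%.

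At the threshold of 1 bp, the 126 private peaks within 50 bp of another list's PU.1 peak stood beside 128 open PU.1 peaks that shared under 50 bp with one. Their median −log10 q was 5.16 and 4.93, H3K4me3 marked 75.4% and 65.6%, and H3K27ac of another cell type marked 81.0% and 86.7%. The nearest members, at chr1:134286866-134287218 and chr4:83534847-83535215, lay 1 bp from such a peak, with −log10 q of 5.35 and 8.93. The nearest non-members, at chr4:94718892-94719087 and chr7:59261430-59261806, shared 2 bp with one, and the first had a −log10 q of 6.25.

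Private peaks lay in 2765 ATAC regions, of which 2619 held 1, 136 held 2 and 10 held 3, so some members share a region. In 590 cases (20.2%) that region also held a PU.1 peak that was not private, in 28.2% of weaker and 12.2% of stronger private peaks. Acetylated regions held few members each: 8 regions with H3K27ac in both BALB/c libraries held 3 members, 7 of them with H3K4me3, against 68.7% of the 1426 acetylated regions with any member. H3K27ac in all 3 other lists was found at 4 of the 8, against 39.8% of the 1426. The 4 of the tied 8 that come first in chromosome order, chr10:77887788-77889323, chr10:79389719-79392143, chr10:128110503-128111716 and chr11:105042062-105044140, carried H3K4me3 and H3K27ac in all 3 other lists, and each of the tied 4 not named lacked H3K27ac in at least 1 of them. Their members had −log10 q between 3.35 and 7.81. Over the autosomes the private share ranged from 8.29% on chromosome 17 to 13.0% on chromosome 14, with 11.6% on X.

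C57 open chromatin was less often called at private peaks than at all other open PU.1 peaks of like −log10 q, though not than at each set of shared peaks. ATAC peaks were called in both C57 libraries at 63.6% of them (69.3% and 71.7% in single libraries, 70.5% ± 1.67, SD, n = 2), against 76.8% of all open PU.1 peaks and 69.9% of the like peaks, a difference of −6.33 points (−8.29 to −4.37). Among the shared sets, weighted likewise, the share was 73.0% of peaks shared with mBMDM only, a difference of −9.46 points (−11.8 to −7.16). It was 61.5% of those shared with Neut or ImmGran but not mBMDM (2.09 points, −1.32 to 5.49) and 62.8% of those shared with all 3 lists (0.772 points, −2.73 to 4.28). BALB/c ATAC, which chose the members, was called in both libraries at 71.7%, against 78.9% of all and 73.6% of the like peaks. Over the stronger 5 strata the C57 difference was −15.9 points (−18.5 to −13.2), and over the weaker it was 3.22 points (0.300 to 6.13). The weaker value was 0.776 and 1.42 points by the single C57 libraries, and the stronger one −14.3 and −15.8 points. The difference of −6.33 points over all strata narrowed to −2.96 points when strata also held PU.1 peak width alike. It narrowed to −2.88 points when the C57 peak had to cover at least 50% of the PU.1 peak.

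Among the 2094 private peaks open in both BALB/c libraries, 215 (10.3%, 9.04 to 11.6) had no ATAC peak in either C57 library, against 5.66% of like peaks, a difference of 4.61 points (3.20 to 6.02). In the strongest stratum this held for 48 of 219 private peaks (21.9%, 16.9 to 27.9) and for 2.61% (2.32 to 2.93) of the others. Over the weaker 5 strata the difference was 0.716 points (−1.22 to 2.65). Private peaks of the strongest stratum had the weaker BALB/c ATAC peaks. Their median ATAC −log10 q was 3.78 and 3.65 in the 2 libraries, against 5.33 and 5.37 for the others. The part of ATAC strength in the missing C57 calls was not tested. C57 H3K27ac was called in both libraries at 39.5% of private peaks, against 47.4% of all open PU.1 peaks and 40.0% of the like peaks. That difference of −0.447 points (−2.43 to 1.53) averaged 10.8 points (7.83 to 13.8) over the weaker 5 strata and −11.7 points (−14.3 to −9.10) over the stronger 5. By shared set, the C57 H3K27ac difference was −5.87 points against peaks shared with mBMDM only. It was 12.1 points against those shared with Neut or ImmGran but not mBMDM, and 8.20 points against those shared with all 3 lists. The 2 C57 lists differed in length, with 14992 and 27527 peaks.

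By class, C57 ATAC in both libraries was as common at private as at like peaks with H3K4me3, 79.9% and 79.9%, with an interval of the difference from −2.57 to 2.51 points. It was lower at H3K27ac without H3K4me3, 63.0% against 73.7%, at H3K4me1 alone, 46.8% against 61.7%, and with no mark, 44.3% against 53.2%. Promoter-type private peaks were open in the other strain as often as their counterparts, and the remaining classes less often.

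A chain of filters led to a small set of distal acetylated members. Of 2921 private peaks, 1418 had H3K27ac in both BALB/c libraries, 350 of these had no H3K4me3 in either, 233 of those had no H3K27ac in the 3 other lists, and 152 of those had ATAC peaks in both C57 libraries. Of the 152, 72 also had H3K27ac in both C57 libraries. Of the 25881 other open PU.1 peaks, 14438 passed the first step and 3048 of these the second. The later steps were not counted for the others, so the chain only describes private peaks. Among the 350, the C57 libraries showed H3K27ac at 44.6% (39.5 to 49.8) and 82.0% (77.6 to 85.7), and among other open PU.1 peaks of this kind at 55.0% and 90.3%.

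The strongest of the 152 was chr6:149003136-149003940 (mm9, 805 bp), with a PU.1 −log10 q of 46.6 and a fold enrichment of 12.5, ranked 5 among all private peaks. It had ATAC −log10 q of 6.60 and 8.48 in the BALB/c libraries and 8.10 and 8.79 in the C57 libraries. Its H3K27ac was low, at 1.41 and 2.00 in BALB/c, with a peak of 2.04 in C57 library 2 and none in library 1. It lay 45701 bp from the nearest H3K4me3 peak and 11414 bp from the nearest PU.1 peak of another list. The next in PU.1 −log10 q were chr7:122962519-122963394 (37.1), chr13:35450627-35451829 (36.9), chr2:29127206-29128018 (33.7), chr15:58365296-58365973 (31.9) and chr13:17718845-17719623 (28.4). At chr7:122962519-122963394, H3K27ac stood at 2.90 and 2.41 in BALB/c and at 4.51 and 6.49 in C57. Values of different lists are not on a common scale.

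The 10 private peaks of highest PU.1 −log10 q, from 41.7 to 50.3, were mixed. The first, chr19:61000513-61000756 (244 bp), had BALB/c ATAC −log10 q of 41.6 and 41.9, C57 ATAC values of 13.2 and 11.9, and BALB/c H3K27ac of 20.0 and 13.8. The second, chr5:149119167-149119434 (268 bp), had H3K4me1 of 18.6 and 12.7 and H3K27ac of 10.5 and 18.7. The third, chr6:43864833-43865111 (279 bp), had BALB/c ATAC of 11.9 and 15.0, no ATAC peak in either C57 library and none of the 3 histone marks. The eighth, chrX:125591041-125591263 (223 bp), carried H3K4me3 of 9.57 and 2.22. These 4 were narrow for their strength, since the strongest stratum had a median width of 637 bp, and whether reads map uniquely there was not tested.

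Of these 10 peaks, 6 had no ATAC peak in either C57 library, 1 had it in 1 library, and 3 in both. No C57 ATAC peak was called at 22.6% of all private peaks, 31.1% of those in the strongest stratum and 10.2% of other open PU.1 peaks. H3K27ac was absent from all 3 other lists at 7 of the 10. At least 1 of these lists had it at 48.9% of all private peaks, 20.1% of those in the strongest stratum and 80.1% of all open PU.1 peaks. The 5 strongest private peaks open in both BALB/c and neither C57 library were chr6:43864833-43865111, chr9:102754353-102755189, chr8:92474336-92475165, chr14:71512663-71513516 and chr11:34795203-34796012. Their BALB/c ATAC −log10 q ranged from 2.59 to 15.0. Of the 4 strongest private peaks with H3K4me3 in both libraries, chr9:102754353-102755189 had 3.40 and 3.45 and no C57 ATAC peak, and 2 others, ranked 12 and 15, had ATAC and H3K27ac peaks in all C57 libraries.

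**Figure D5:**
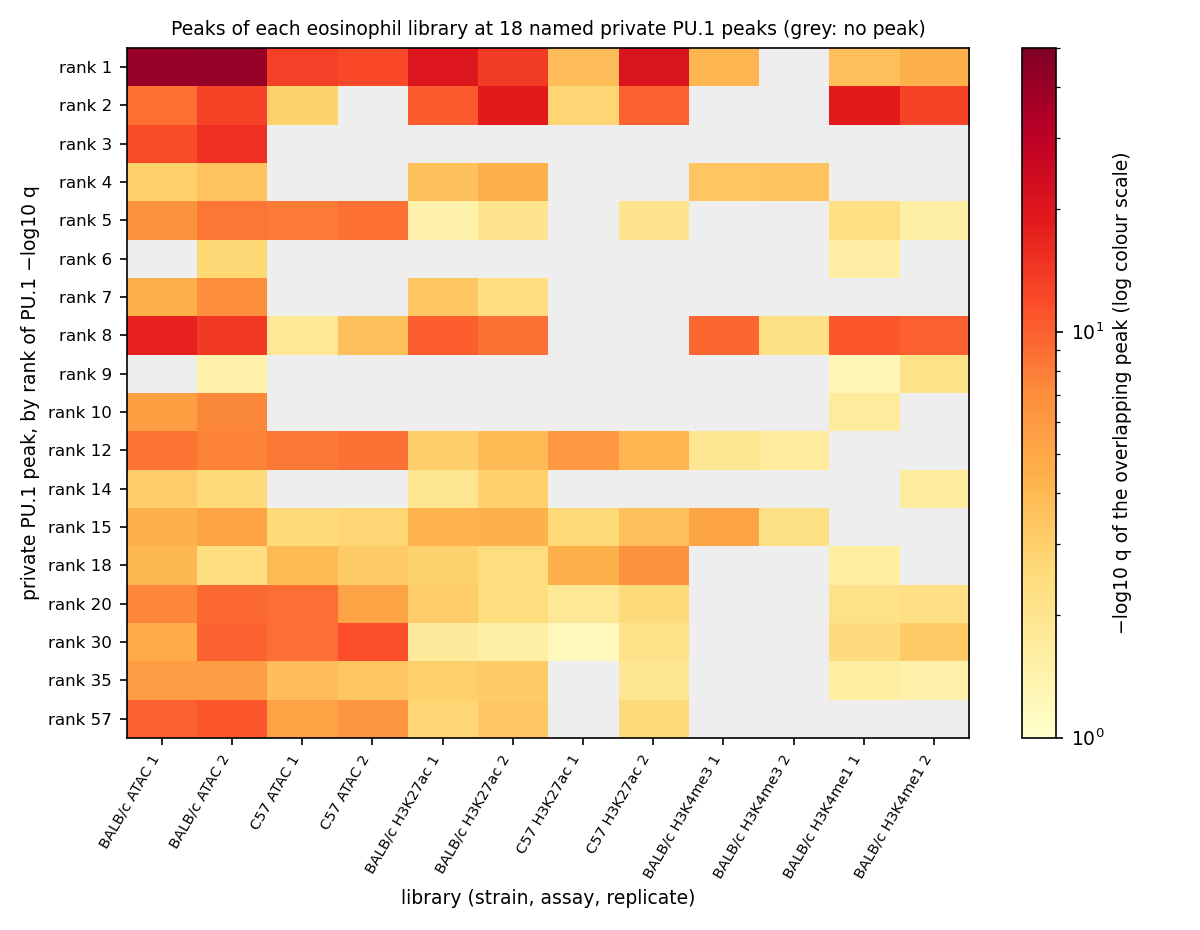
The −log10 q of the overlapping peak (log colour scale, grey where no peak was called) in 12 eosinophil libraries (x axis) at 18 named private PU.1 peaks (y axis, ranked by PU.1 −log10 q). Ranks 3, 4, 6, 7, 9, 10 and 14 have no C57 ATAC peak, and rank 1 has the highest BALB/c ATAC values, 41.6 and 41.9.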

How the data were processed

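The authors deposited 1 peak list per library, called per library on mm9, and gene-level read counts of each RNA library. Each list gives the authors' score, fold enrichment ratio, −log10 p and −log10 q per peak. The PU.1 lists named BALB/c, Neut and ImmGran have a narrow layout with a summit offset and reach a −log10 q of 2; the others have a broad layout and reach 1, as tested on the files. Bowtie2 2.3.4.1, bedtools 2.27.0, Picard 1.89, HOMER, cutadapt 1.8.1, STAR 2.5 and featureCounts are named, with no role, per the submitters' processing notes; the peak caller is not given in the sources used here. Per the labels' protocols, ChIP libraries were made by ChIPmentation. The depth behind the peak lists is unknown. Counts were scaled to CPM only.

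Overlaps of 1 bp, strata, Wilson intervals and weighted shares were computed in Python 3.11.15 with numpy 2.4.6, pandas 2.3.3, scipy 1.17.1 and matplotlib 3.10.9, and checked against bedtools 2.31.1 and on simulated data. Overlapping neighbours in the Neut and ImmGran PU.1 lists were merged. With 1 PU.1 library no test across samples was run. Named peaks follow fixed rules: the 10 strongest members, the 6 strongest distal acetylated, the 4 strongest with H3K4me3, the 5 strongest open in BALB/c only, the 4 acetylated regions with most members, and 3 on each side of the overlap threshold. The members and lists were chosen with earlier results of these data known. Count columns of 2 RNA libraries of other studies were not used. No mm9 genome or annotation was used, so genes, sequences and motifs at these peaks were not analysed here.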

Additional observations from a re-analysis of the deposited data

How the results depend on the processing

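Differences are private minus other open PU.1 peaks of like −log10 q, in points. The 500 bp setting left out private peaks within 500 bp of a PU.1 peak of another list. It left out none of the others, since all of them overlap such a peak. At a −log10 q of at least 5 the strata were cut anew over the peaks left. Weaker and stronger private peaks there are thus not the same sets as in the main run. Settings that changed the PU.1 lists of the other cell types were run for the number of private peaks only. The number of private peaks was 1825 at a PU.1 −log10 q of at least 5, 6534 without the mBMDM list and 9866 with equal list lengths; leaving out an ATAC library gave 2440 to 2575. The H3K27ac difference of 2.17 turned to −4.77 at a −log10 q of at least 5, −9.99 with no other PU.1 peak within 500 bp and −7.24 without strata, and was 3.96 with ATAC strata, 6.91 with width strata, 4.23 for either library, 3.07 at 50% cover, 6.02 away from H3K4me3, 3.20 when open in both lists, and 2.64 to 3.77 when leaving out a library. The H3K4me3 difference of −4.93 was −13.7 at a −log10 q of at least 5, −19.2 with no other PU.1 peak within 500 bp, −4.51 without strata, −2.19 with ATAC strata, −0.592 with width strata, −4.14 for either library, −3.45 at 50% cover, −4.24 when open in both lists, and −4.77 to −4.29 when leaving out a library. Over stronger private peaks it was, in that order without the last setting, −24.8, −28.7, −15.9, −8.33, −11.9, −16.0 and −16.1, and −17.8 to −16.3 when leaving out a library. Over weaker private peaks it turned to −2.54 at a −log10 q of at least 5 and −9.27 with no other PU.1 peak within 500 bp, and was 3.92 with ATAC strata, 10.7 with width strata, 7.76 for either library, 9.26 at 50% cover, 9.81 when open in both lists, and 7.74 to 8.28 when leaving out a library. The H3K4me1 difference of 3.78 turned to −2.0 without strata, and was 6.32 at a −log10 q of at least 5, 6.46 with no other PU.1 peak within 500 bp, 2.88 with ATAC strata, and 3.59 to 4.76 when leaving out a library. The C57 ATAC difference of −6.33 stayed negative: −12.7 at a −log10 q of at least 5, −10.6 with no other PU.1 peak within 500 bp, −14.7 without strata, −5.17 with ATAC strata, −2.96 with width strata, −7.64 for either library, −2.88 at 50% cover, −8.49 away from H3K4me3, −4.76 when open in both lists, and −7.22 to −6.75 when leaving out a library. The difference in H3K27ac of other cell types of −29.8 stayed negative: −38.8, −45.5 and −34.7 under the same 3 settings, −26.6 with width strata, −43.2 away from H3K4me3, −25.8 when open in both lists, and −22.1 and −21.3 for the Neut and ImmGran lists alone. The cause of these changes was not tested. The 50 strata and the ATAC strata were chosen after seeing the data. No paired analysis was possible because no test ran across samples.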
